A study of Homo sapiens with 8 samples.

Results

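The genes described here are those of the NRF2 and antioxidant programme, taken as the rows of the deposited expression table whose gene symbol stood on a list of 41 genes. Of the listed genes 40 were in the table of 13842 genes, and the glutathione transferase *GSTM3* had no row. All 40 passed the filter on low values, so none was lost before testing.

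The study asked what changes in breast epithelial cells when the long non-coding RNA *MALINC1* is overexpressed, and measured it by RNA sequencing in 8 libraries. MCF10A is an immortalised, non-tumorigenic breast epithelial line, and DCIS.COM is a line of the same lineage that forms lesions like ductal carcinoma in situ. Each line was stably transduced with the lentiviral vector pLOC-MALINC1 or with the control vector pLOC-empty, and all cells, controls included, had been selected with blasticidin. There were 4 groups with 2 libraries in each. MCF10A grew in medium with horse serum, epidermal growth factor, hydrocortisone, insulin and cholera toxin, whereas the medium of DCIS.COM is described with horse serum alone, so in every comparison of the lines the line and its medium cannot be told apart. The sources do not say whether the 2 libraries of a group came from separate cultures or transductions, and the p-values below then measure only the spread between these libraries.

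NRF2, encoded by *NFE2L2*, is a transcription factor that the adaptor protein KEAP1 holds in the cytoplasm and hands to the proteasome. Oxidants and electrophiles modify cysteines of KEAP1, NRF2 then accumulates, pairs with a small MAF protein and binds antioxidant response elements near genes that make glutathione, reduce thioredoxin, supply NADPH, detoxify quinones and carbonyls, and handle heme and iron. In breast epithelium, as in other epithelia, this programme is known for its basal activity as well as for its induction, and much of its control lies at the level of NRF2 protein, which RNA sequencing does not measure.

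The core letters of the antioxidant response element, TGACNNNGC, were searched on both strands of the RefSeq promoter windows of build GRCh38.p14, which run from 250 bases before to 50 bases after a gene's start. A window was at hand for 32 of the 40 genes, and 12 of these 32 genes (37.5%) held the motif, against 2031 of 10497 genes of the whole table (19.3%) and 4687 of 35116 windows of the reference (13.3%). Of the 16 matches, 3 also spelled the AP-1 motif TGACTCA, which overlaps the element, in *GSTP1*, *ME1* and *PIR*. Windows were not at hand for *MAFK*, *HMOX1*, *AKR1B10*, *GSR*, *PRDX1*, *SOD1*, *FTH1* and *CBR3*. A match is a description of letters and not a site of binding, and a window without one says nothing about NRF2. The 6 windows printed here belong to the genes that held the motif and differed over 2-fold between the lines in the comparison described further on, and the capitals mark each match on either strand. They lie at chr1:93909381-93909680 on the minus strand for *GCLM*, at chr12:104215529-104215828 on the plus strand for *TXNRD1* (the window of 1 of its 2 starts), at chr1:10398814-10399113 on the plus strand for *PGD*, at chr14:64942696-64942995 on the minus strand for *GPX2*, at chr11:67583562-67583861 on the plus strand for *GSTP1* and at chrX:15493284-15493583 on the minus strand for *PIR*.
GCLM: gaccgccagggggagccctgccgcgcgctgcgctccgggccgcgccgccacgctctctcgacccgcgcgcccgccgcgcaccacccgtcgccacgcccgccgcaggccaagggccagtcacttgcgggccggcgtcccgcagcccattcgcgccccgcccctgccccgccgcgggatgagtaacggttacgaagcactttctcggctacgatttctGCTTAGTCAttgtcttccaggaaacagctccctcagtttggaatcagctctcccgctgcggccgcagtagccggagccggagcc
TXNRD1: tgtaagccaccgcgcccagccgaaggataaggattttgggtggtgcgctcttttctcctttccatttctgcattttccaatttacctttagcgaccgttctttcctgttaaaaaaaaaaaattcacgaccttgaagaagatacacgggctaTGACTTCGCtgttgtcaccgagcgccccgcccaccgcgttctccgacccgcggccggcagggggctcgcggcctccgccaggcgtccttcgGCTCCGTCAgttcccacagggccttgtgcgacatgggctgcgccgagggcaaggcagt
PGD: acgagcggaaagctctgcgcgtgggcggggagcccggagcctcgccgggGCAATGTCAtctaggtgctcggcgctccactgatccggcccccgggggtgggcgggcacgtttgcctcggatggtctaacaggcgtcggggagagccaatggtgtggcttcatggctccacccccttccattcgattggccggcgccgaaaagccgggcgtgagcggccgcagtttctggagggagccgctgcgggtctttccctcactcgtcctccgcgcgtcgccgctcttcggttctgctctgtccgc
GPX2: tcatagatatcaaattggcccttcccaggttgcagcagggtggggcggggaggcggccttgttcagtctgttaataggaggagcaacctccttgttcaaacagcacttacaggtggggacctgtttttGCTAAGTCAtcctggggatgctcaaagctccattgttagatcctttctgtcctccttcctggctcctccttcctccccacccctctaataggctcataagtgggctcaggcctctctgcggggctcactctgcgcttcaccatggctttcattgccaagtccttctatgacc
GSTP1: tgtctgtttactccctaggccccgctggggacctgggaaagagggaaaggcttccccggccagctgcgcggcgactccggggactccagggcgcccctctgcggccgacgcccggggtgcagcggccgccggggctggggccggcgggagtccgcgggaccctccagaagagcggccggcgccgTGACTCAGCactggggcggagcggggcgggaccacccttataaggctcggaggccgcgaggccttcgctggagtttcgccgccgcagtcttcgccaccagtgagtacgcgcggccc
PIR: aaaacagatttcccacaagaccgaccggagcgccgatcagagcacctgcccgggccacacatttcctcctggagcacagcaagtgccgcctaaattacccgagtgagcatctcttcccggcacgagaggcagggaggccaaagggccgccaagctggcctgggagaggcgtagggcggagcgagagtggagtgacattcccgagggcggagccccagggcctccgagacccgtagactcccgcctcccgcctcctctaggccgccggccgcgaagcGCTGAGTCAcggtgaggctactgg
The first base of the match stood 34 bases before the start in *GCLM*, 99 and 8 bases before it in *TXNRD1*, 201 before it in *PGD*, 122 before it in *GPX2* and 66 before it in *GSTP1*, and in *PIR* it lay 26 bases after the start.

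The libraries held 20604377 to 37550457 reads on genes. The RNAs *RN7SL1* and *RN7SL2*, parts of the signal recognition particle, took 12.3% to 15.7% of the reads with pLOC-empty and 8.22% to 11.7% with pLOC-MALINC1, lower with pLOC-MALINC1 in both lines, and the results below were therefore repeated on totals without these RNAs. The pLOC-MALINC1 libraries of DCIS.COM differed from each other, at 11.5% and 8.22%. *MALINC1* stood at 1.07 and 1.58 CPM (read counts scaled to the total of the library) with pLOC-empty and at 13.3 and 11.8 CPM with pLOC-MALINC1 in MCF10A, and at 1.42 and 1.22 against 24.5 and 19.2 CPM in DCIS.COM. All 8 breast basal epithelial markers looked for were in the table, *CDH1* and *EPCAM* among them, which are not particular to basal cells. The summed levels of the 8 were 20381 and 20455 CPM with pLOC-empty and 27231 and 27827 CPM with pLOC-MALINC1 in MCF10A, and 4883 to 5213 CPM in DCIS.COM. Of these, *TP63* rose in MCF10A from 5.31 and 4.68 to 41.8 and 40.2 CPM (adjusted p = 1.08e-11) and *KRT14* rose by 1.01 on the log2 scale (adjusted p = 1.19e-09). The other markers had log2 fold changes of 0.12 (*CDH1*) to 0.61 (*EPCAM*) there. In DCIS.COM *KRT14* (-0.59), *KRT17* (-0.27) and *LAMB3* (-0.89) fell and *KRT5* (0.38), *CDH1* (0.59) and *ITGB4* (0.27) rose, at an adjusted p below 0.01. With pLOC-empty, *TP63* (log2 difference 3.51), *EPCAM* (2.17) and *ITGB4* (1.66) were higher in DCIS.COM than in MCF10A. *KRT14* (-5.46), *KRT17* (-3.36), *KRT5* (-2.52), *CDH1* (-1.55) and *LAMB3* (-1.30) were lower. Of 4 luminal markers 3 were in the table, summing to 17.2 to 18.9 against 23.9 to 25.7 CPM in MCF10A and to 33.0 to 37.4 against 43.3 to 49.0 CPM in DCIS.COM, and of 4 leukocyte markers none was. *PECAM1*, the only one of 3 endothelial markers in the table, stood at 6.13 and 7.28 CPM with pLOC-empty and 0.159 and 0.249 CPM with pLOC-MALINC1 in DCIS.COM (adjusted p = 1.13e-08), and at 0.751 to 1.11 CPM in MCF10A. *COL1A1*, the only one of 4 fibroblast markers, fell from 15.2 and 15.9 to 7.45 and 6.68 CPM in MCF10A (adjusted p = 1.31e-05) and stood at 1.58 to 2.08 CPM in DCIS.COM. The part of other cell types in the results was not tested. The 2 libraries of a group differed by a median of 0.0441 to 0.0519 on the log2 scale over the 40 antioxidant genes, against 0.0682 to 0.0771 over all genes. In such bulk libraries fewer cells with an RNA and less of it per cell cannot be told apart.

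In MCF10A, pLOC-MALINC1 went with changes in both directions among the antioxidant genes, and the largest was a fall in heme oxygenase. *HMOX1*, which breaks heme down, fell 2.39-fold, the selenoprotein glutathione peroxidase *GPX4* and the thioredoxin reductase *TXNRD1* each fell 1.70-fold, and the small MAF gene *MAFK* rose 1.66-fold. A gene was called at an adjusted p below 0.01 in limma's test with Benjamini-Hochberg adjustment over all 13842 genes, and called over 2-fold where the change was also larger than 2-fold. Called higher were 12 of the 40 genes (30%), against 21.5% of all genes, and called lower were 13 of 40 (32.5%), against 18.1%. The only gene called over 2-fold was *HMOX1* (2.5% of the 40), against 5.50% of all genes. The median log2 fold change was -0.06 over the 40 genes and 0.00 over all genes. On totals without *RN7SL1* and *RN7SL2* 7 genes were called higher and 15 lower. The count of rises also fell to 7 without pLOC-empty replicate 2 or either pLOC-MALINC1 library of MCF10A, to 6 without the intensity trend and to 4 with the line fitted alone, so many of the 12 calls were marginal, while 13 falls were called in each of these fits.

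In DCIS.COM the called antioxidant genes were mostly lower with pLOC-MALINC1. The small MAF gene *MAFF* fell 3.43-fold, the mitochondrial superoxide dismutase *SOD2* 1.72-fold and the ferritin heavy chain *FTH1* 1.67-fold, whereas the glutathione reductase *GSR* rose 1.88-fold. Called higher were 4 of 40 genes (10%), against 16.4% of all genes, and called lower were 16 of 40 (40%), against 16.7%. *MAFF* was the only gene called over 2-fold (2.5%), against 4.53% of all genes. The median log2 fold change was -0.09 over the 40 genes and 0.01 over all genes. On totals without *RN7SL1* and *RN7SL2* 6 were called higher and 13 lower, and without pLOC-MALINC1 replicate 1 of DCIS.COM 9 were called lower.

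**Figure D1:**
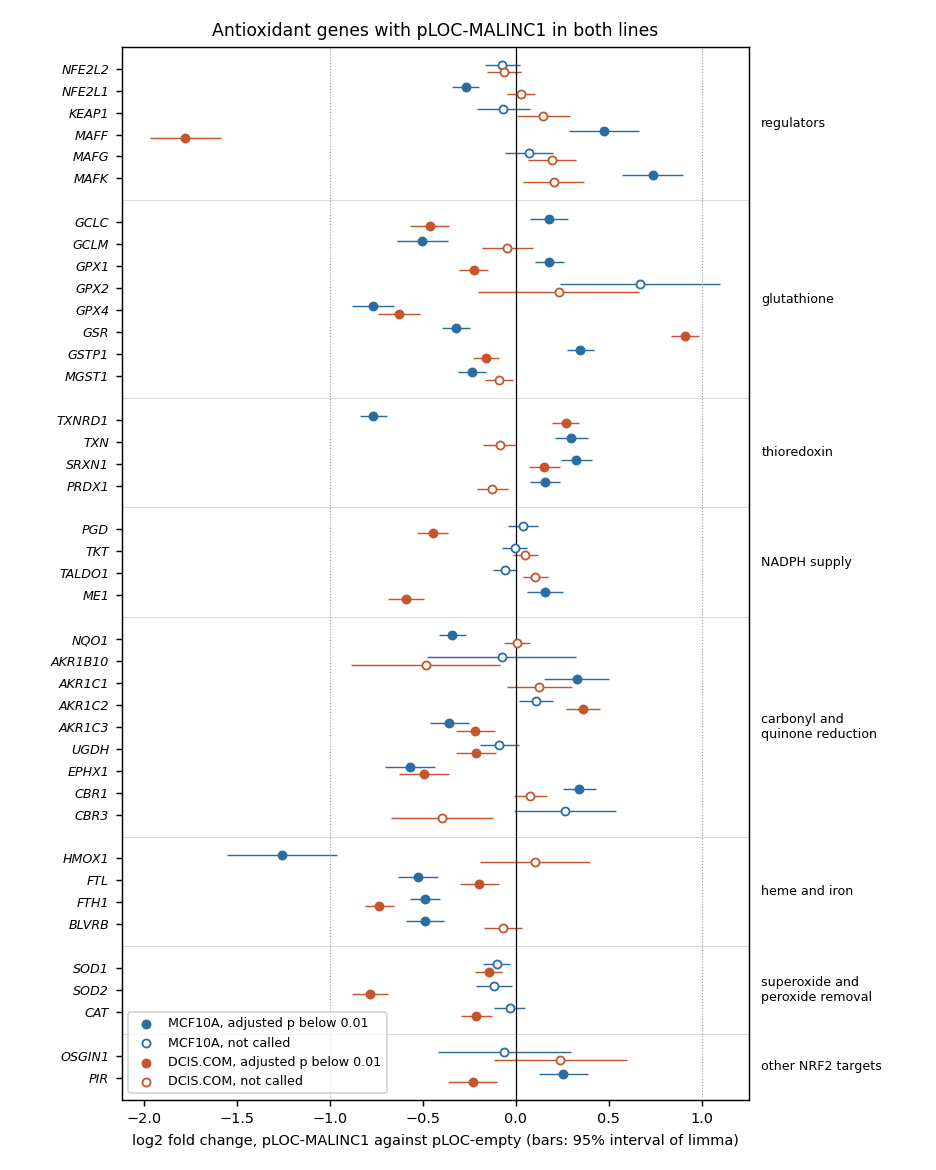
Log2 fold change of each of the 40 antioxidant genes with pLOC-MALINC1 against pLOC-empty (horizontal axis, log2) in MCF10A (blue) and DCIS.COM (orange), grouped by role, with 95% intervals of limma as bars and filled points where the adjusted p was below 0.01. *HMOX1* at -1.26 in MCF10A and *MAFF* at -1.78 in DCIS.COM are the filled points beyond the dotted lines at 2-fold.

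The change with pLOC-MALINC1 was then compared between the lines, as the log2 fold change in DCIS.COM minus that in MCF10A, which uses the same 8 libraries as the 2 comparisons above. It was higher in DCIS.COM for 10 of 40 genes (25%), against 15.6% of all genes, and lower for 14 (35%), against 20.3%. The difference was over 2-fold for 4 genes (10%), *HMOX1*, *GSR*, *TXNRD1* and *MAFF*, against 9.20% of all genes. Its median was -0.08 over the 40 genes and -0.01 over all genes. Only *SRXN1* was called higher in both lines (2.5%), against 5.42% of all genes, and *EPHX1*, *FTH1*, *FTL*, *GPX4* and *AKR1C3* were called lower in both (12.5%), against 3.97%. *GSR* and *TXNRD1* were called in both lines with opposite signs, down in MCF10A and up in DCIS.COM (5%, against 3.61%), and *GCLC*, *GPX1*, *GSTP1*, *ME1*, *PIR* and *MAFF* the reverse, with a rise in MCF10A and a fall in DCIS.COM (15%, against 4.20%). A further 11 genes were called in MCF10A but not in DCIS.COM (27.5%, against 22.4% of all genes), 6 in DCIS.COM but not in MCF10A (15%, against 16.0%) and 9 in neither line (22.5%, against 44.4%). *GSR* and *TXNRD1* had opposite calls in every alternative run. The 6 genes of the reverse pattern were 3 on totals without *RN7SL1* and *RN7SL2*, namely *GPX1*, *GSTP1* and *MAFF* (7.5%, against 3.11% of all genes). They were 1 without the intensity trend (2.5%, against 2.16%) and 0 with each line fitted alone (against 1.78%). Without any 1 of the 8 libraries they were fewer than 6. The genes called lower in both lines were 3 to 5 when 1 library was left out, with *EPHX1*, *FTH1* and *GPX4* always among them, and the 3 without pLOC-empty replicate 2 or pLOC-MALINC1 replicate 1 of DCIS.COM.

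**Figure D2:**
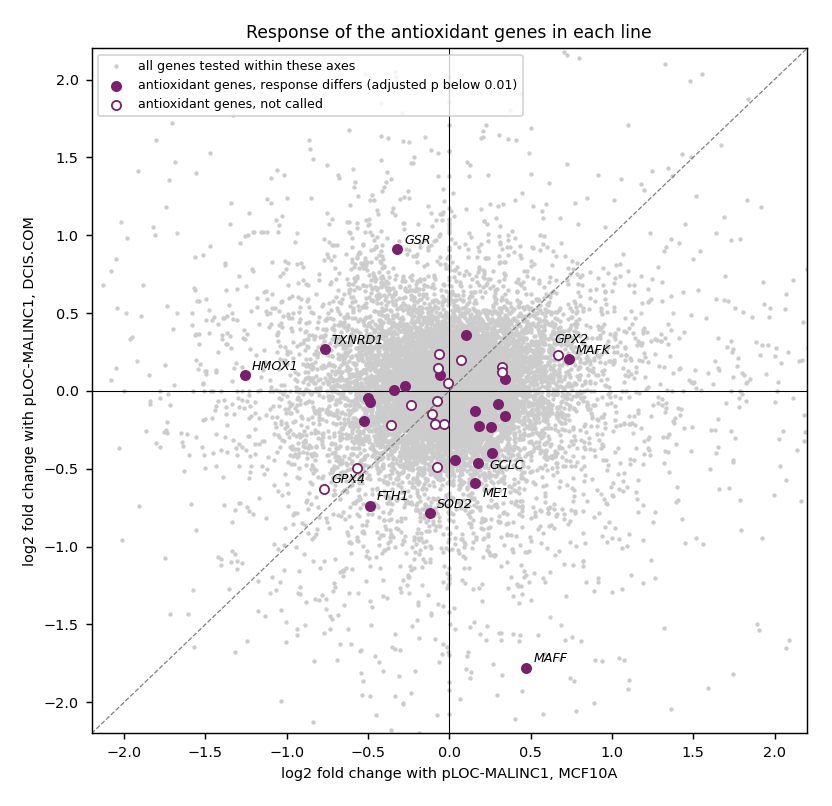
Log2 fold change with pLOC-MALINC1 in MCF10A (horizontal axis, log2) against that in DCIS.COM (vertical axis, log2), with the 40 antioxidant genes in purple, filled where the change differed between the lines at an adjusted p below 0.01, and 13587 of all genes in grey within these axes (255 lie outside). Points off the dashed line of equal change, *MAFF* low on the right and *GSR*, *TXNRD1* and *HMOX1* on the upper left, are the 4 genes whose change differed over 2-fold.

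Among the regulators, the gene of NRF2 itself was not called in either line. *NFE2L2* stood at 73.2 and 71.8 CPM with pLOC-empty and 70.8 and 67.1 CPM with pLOC-MALINC1 in MCF10A, and at 49.4 and 49.6 against 46.6 and 48.2 CPM in DCIS.COM. The pLOC-MALINC1 libraries were the lower pair in both lines without overlap, by small margins, with log2 fold changes of -0.07 (SE 0.0425, adjusted p = 0.168) in MCF10A and -0.06 (adjusted p = 0.247) in DCIS.COM. *KEAP1*, whose product holds NRF2 back, stood at 72.7 and 76.7 against 69.5 and 72.9 CPM in MCF10A, where the groups overlapped, and at 53.9 and 45.7 against 54.3 and 55.6 CPM in DCIS.COM, where they did not. Its log2 fold changes were -0.07 (SE 0.0652, adjusted p = 0.405) and 0.15 (adjusted p = 0.0841). The pLOC-empty libraries of DCIS.COM lay wide apart for this gene. Without replicate 1, the higher of them, the log2 fold change in DCIS.COM was 0.27 and its difference between the lines 0.33. Both then passed the test, resting on the lower library alone in its group. Leaving out any other library gave no call for either. The related factor *NFE2L1*, which controls proteasome genes, fell in MCF10A (log2 fold change -0.27, adjusted p = 3.42e-05) and was not called in DCIS.COM (0.03, adjusted p = 0.52), and the difference between the lines passed the test (0.30, adjusted p = 0.000275).

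The small MAF genes encode the partners with which NRF2 binds DNA, and they can also form pairs among themselves that repress. *MAFF* stood at 15.5 and 14.1 CPM with pLOC-empty and 21.6 and 19.5 CPM with pLOC-MALINC1 in MCF10A. In DCIS.COM it stood at 21.2 CPM in both pLOC-empty libraries and at 6.51 and 5.89 CPM with pLOC-MALINC1. The groups did not overlap in either line and moved in opposite directions. The log2 fold change was 0.47 (SE 0.0869, adjusted p = 0.000635) in MCF10A and -1.78 (SE 0.0869, adjusted p = 1.04e-08) in DCIS.COM, and the difference of -2.25 (SE 0.123, adjusted p = 2.14e-08) was the largest among the 40 genes. The rise in MCF10A was no longer called without pLOC-empty replicate 2 or pLOC-MALINC1 replicate 1 of that line (log2 fold change 0.41 and 0.40, adjusted p = 0.0104 and 0.0118). *MAFK* stood at 14.2 and 15.3 against 25.1 and 23.9 CPM in MCF10A and at 19.0 and 17.0 against 21.3 and 20.1 CPM in DCIS.COM, higher with pLOC-MALINC1 in each line without overlap. It rose in MCF10A (log2 fold change 0.73, SE 0.0756, adjusted p = 5.88e-06), and in DCIS.COM its log2 fold change of 0.20 did not pass (adjusted p = 0.0436). *MAFG* was not called in either line (0.07, adjusted p = 0.332, and 0.20, adjusted p = 0.0173).

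Glutathione is made in a first step by glutamate-cysteine ligase, whose catalytic subunit is *GCLC* and whose modifier subunit is *GCLM*. *GCLC* stood at 59.5 and 63.8 CPM with pLOC-empty and 71.0 and 68.4 CPM with pLOC-MALINC1 in MCF10A, and at 60.7 and 62.5 against 43.6 and 45.7 CPM in DCIS.COM. The groups did not overlap, and the gene rose slightly in MCF10A (log2 fold change 0.18, SE 0.0473, adjusted p = 0.00738) and fell in DCIS.COM (-0.46, adjusted p = 6.89e-06), with a difference of -0.64 (SE 0.067, adjusted p = 7.48e-06). The small rise in MCF10A missed the threshold without pLOC-empty replicate 1 or either pLOC-MALINC1 library of MCF10A, and without either pLOC-empty library of DCIS.COM, which leaves fewer libraries for the shared spread, at log2 fold changes of 0.13 to 0.21 and adjusted p of 0.0114 to 0.0851. It missed it too under quantile normalization and on totals without *RN7SL1* and *RN7SL2*. *GCLM* stood at 71.9 and 72.0 against 49.0 and 52.6 CPM in MCF10A, without overlap, and at 23.2 and 24.1 against 21.4 and 24.4 CPM in DCIS.COM, with overlap. It fell in MCF10A (log2 fold change -0.50, SE 0.0632, adjusted p = 3.26e-05), its value in DCIS.COM was -0.05 (adjusted p = 0.577), and the difference was 0.46 (adjusted p = 0.00114). The subunits of this enzyme thus had log2 fold changes of opposite sign in MCF10A.

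Glutathione is oxidised by the peroxidases and returned to its reduced form by *GSR*. *GSR* stood at 90.6 and 92.3 CPM with pLOC-empty and 73.0 and 73.3 CPM with pLOC-MALINC1 in MCF10A, and at 74.5 and 72.6 against 139 and 138 CPM in DCIS.COM. Its groups did not overlap, and it fell in MCF10A (log2 fold change -0.32, SE 0.0347, adjusted p = 8.71e-06) and rose in DCIS.COM (0.91, SE 0.0347, adjusted p = 1.21e-09), a difference of 1.23 (SE 0.0491, adjusted p = 1.32e-09). *GPX4*, which reduces lipid hydroperoxides in membranes and guards against ferroptosis, stood at 112 and 111 against 66.7 and 64.1 CPM in MCF10A and at 92.7 and 104 against 65.4 and 61.6 CPM in DCIS.COM. It was lower in both lines without overlap, with log2 fold changes of -0.77 (SE 0.0524, adjusted p = 1.72e-07) and -0.63 (adjusted p = 1.19e-06), and the difference of 0.14 between the lines did not pass (adjusted p = 0.138, 95% interval -0.02 to 0.30). The cytosolic peroxidase *GPX1* was called higher in MCF10A (0.18, adjusted p = 0.000958) and lower in DCIS.COM (-0.23, adjusted p = 0.000197), although 49.4% of the 76-base stretches of its transcript also occur in other annotated genes, so its reads are uncertain.

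*GPX2*, a peroxidase of epithelia and a known NRF2 target, was close to the limit of detection in MCF10A. It had 9 and 5 reads with pLOC-empty and 22 and 9 reads with pLOC-MALINC1 there, listed at 0.382 and 0.293 against 0.684 and 0.411 CPM. The groups did not overlap and the log2 fold change of 0.67 did not pass (SE 0.198, adjusted p = 0.0136). Without pLOC-MALINC1 replicate 2 it was 1.03 and its difference between the lines -0.80. Both then passed, resting on the library of 22 reads alone in its group. Leaving out any other library gave no call for either. In DCIS.COM *GPX2* stood at 105 and 97.9 against 117 and 121 CPM, higher with pLOC-MALINC1 without overlap, with a log2 fold change of 0.23 that did not pass (adjusted p = 0.374). The SE is shared with the MCF10A groups of few reads, and limma voom, which weights by read number, called the same change (0.23, adjusted p = 0.000276), while the other alternatives gave adjusted p of 0.0185 with the line fitted alone to 0.654 without pLOC-empty replicate 2. The glutathione transferase *GSTP1*, which couples glutathione to electrophiles, stood at 782 and 812 against 1017 and 1007 CPM in MCF10A and at 329 and 319 against 286 and 293 CPM in DCIS.COM. Its groups did not overlap, and it rose in MCF10A (log2 fold change 0.35, SE 0.0331, adjusted p = 3.22e-06) and fell slightly in DCIS.COM (-0.16, adjusted p = 0.00168), a difference of -0.51 (adjusted p = 2.7e-06). The fall in DCIS.COM was not called without pLOC-empty replicate 1 or pLOC-MALINC1 replicate 1 of that line (log2 fold change -0.14 in both, adjusted p = 0.0246 and 0.0171). The microsomal transferase *MGST1* fell in MCF10A (-0.24, adjusted p = 0.000109) and was not called in DCIS.COM (-0.09, adjusted p = 0.044).

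**Figure D3:**
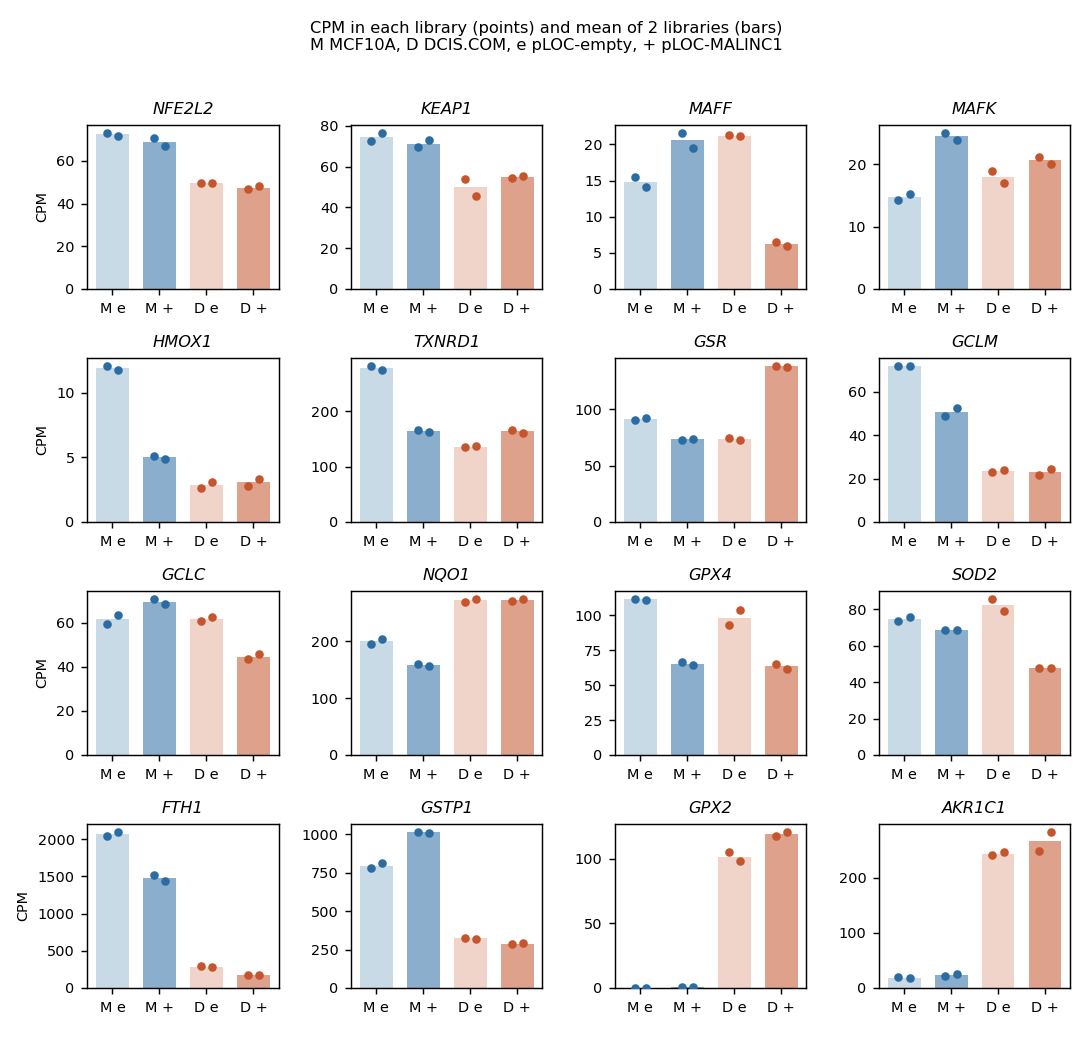
CPM (vertical axis of each panel, from 0) of 16 antioxidant genes in every library as points, with the mean of the 2 libraries of a group as a bar, for MCF10A (blue) and DCIS.COM (orange) with pLOC-empty (light) and pLOC-MALINC1 (dark). *MAFF* and *GSR* moved in opposite directions in the lines, *GPX4* and *FTH1* were lower with pLOC-MALINC1 in both, and *GPX2* and *AKR1C1* were near the floor of their panels in MCF10A only.

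The thioredoxin branch reduces protein disulfides and peroxiredoxins, and *TXNRD1* feeds it with electrons from NADPH. *TXNRD1* stood at 283 and 276 CPM with pLOC-empty and 166 and 163 CPM with pLOC-MALINC1 in MCF10A, and at 135 and 137 against 166 and 161 CPM in DCIS.COM. Its groups did not overlap, and the pLOC-MALINC1 libraries of the 2 lines reached about the same level from opposite sides. It fell in MCF10A (log2 fold change -0.77, SE 0.0329, adjusted p = 3.01e-09) and rose in DCIS.COM (0.27, adjusted p = 3.4e-05), a difference of 1.03 (SE 0.0465, adjusted p = 3.79e-09). *SRXN1*, the sulfiredoxin that restores overoxidised peroxiredoxins, stood at 85.7 and 89.7 against 108 and 112 CPM in MCF10A and at 68.5 and 68.6 against 77.1 and 75.4 CPM in DCIS.COM. It was higher in both without overlap, at log2 fold changes of 0.32 (adjusted p = 1.97e-05) and 0.15 (SE 0.0384, adjusted p = 0.00612). The call in DCIS.COM was lost without any 1 of the 4 libraries of that line (log2 fold change 0.14 to 0.17, adjusted p = 0.0184 to 0.0468) and under quantile normalization, and 90.5% of the 76-base stretches of this transcript also belong to another annotated gene. Thioredoxin itself, *TXN*, and the peroxiredoxin *PRDX1* were called higher in MCF10A (0.30, adjusted p = 7.07e-05, and 0.16, adjusted p = 0.00382) and not in DCIS.COM (-0.09, adjusted p = 0.102, and -0.13, adjusted p = 0.0146), with differences of -0.38 (adjusted p = 0.000163) and -0.28 (adjusted p = 0.000795). The call of *PRDX1* in MCF10A was lost without any 1 library of that line and on totals without *RN7SL1* and *RN7SL2*. It was lost too without the trend and with the line fitted alone, and the last of these also ended that of *TXN*. In DCIS.COM quantile normalization called *TXN* lower and limma voom called *PRDX1* lower.

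NADPH for both branches comes in part from the pentose phosphate pathway and from malic enzyme. *PGD*, the phosphogluconate dehydrogenase of that pathway, stood at 51.9 and 53.0 CPM with pLOC-empty and 55.2 and 52.5 CPM with pLOC-MALINC1 in MCF10A, where the groups overlapped, and at 164 and 160 against 120 and 118 CPM in DCIS.COM, where they did not. It fell in DCIS.COM (log2 fold change -0.45, SE 0.0382, adjusted p = 1.49e-06), its value in MCF10A was 0.04 (adjusted p = 0.43), and the difference was -0.48 (adjusted p = 1.33e-05). The malic enzyme *ME1* was called higher in MCF10A by a small margin (0.16, adjusted p = 0.00992) and lower in DCIS.COM (-0.59, adjusted p = 4.79e-07). The non-oxidative enzymes *TKT* and *TALDO1* were not called in either line (-0.01 and -0.06 in MCF10A, 0.05 and 0.10 in DCIS.COM), though the difference of 0.16 between the lines passed for *TALDO1* (adjusted p = 0.00757).

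The quinone reductase *NQO1*, a gene often used as a readout of NRF2, stood at 196 and 204 CPM with pLOC-empty and 160 and 156 CPM with pLOC-MALINC1 in MCF10A, and at 270 and 275 against 271 and 275 CPM in DCIS.COM. The groups were apart in MCF10A and overlapped in DCIS.COM. It fell in MCF10A (log2 fold change -0.34, SE 0.0328, adjusted p = 3.23e-06), its value in DCIS.COM was 0.01 (adjusted p = 0.916, 95% interval -0.07 to 0.08), and the difference was 0.35 (adjusted p = 6.03e-05). Of the 9 genes for the reduction of quinones and carbonyls and related detoxification, 2 were called higher (22.2%, against 21.5% of all genes) and 3 lower (33.3%, against 18.1%) in MCF10A, and 1 higher (11.1%, against 16.4%) and 3 lower (33.3%, against 16.7%) in DCIS.COM. The epoxide hydrolase *EPHX1* was called lower in both lines (-0.57, adjusted p = 9.91e-06, and -0.49, adjusted p = 3.96e-05). *UGDH*, which makes UDP-glucuronic acid, was called lower in DCIS.COM (-0.21, adjusted p = 0.0035), and the carbonyl reductase *CBR1* higher in MCF10A (0.34, adjusted p = 2.13e-05). The call of *UGDH* was lost with the line fitted alone and without the trend. It was lost too without pLOC-empty replicate 1 or either pLOC-MALINC1 library of DCIS.COM. *CBR3* and *AKR1B10* were called in neither line, and the difference of -0.66 passed for *CBR3* (adjusted p = 0.00852).

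The aldo-keto reductases *AKR1C1*, *AKR1C2* and *AKR1C3* reduce carbonyls and steroids. *AKR1C1* stood at 19.6 and 17.3 CPM with pLOC-empty and 21.3 and 25.1 CPM with pLOC-MALINC1 in MCF10A, and at 241 and 246 against 248 and 283 CPM in DCIS.COM, higher in each line without overlap. Its log2 fold changes were 0.33 (SE 0.0804, adjusted p = 0.00461) and 0.12 (adjusted p = 0.229), and the call in MCF10A was lost without replicate 2 of either MCF10A group or either pLOC-empty library of DCIS.COM (0.21 to 0.33, adjusted p = 0.0119 to 0.069). It was lost too on totals without *RN7SL1* and *RN7SL2*, with the line fitted alone, without the trend and with limma voom (adjusted p = 0.0103 to 0.0831). *AKR1C2* stood at 74.9 and 69.7 against 76.6 and 78.9 CPM in MCF10A and at 259 and 258 against 322 and 342 CPM in DCIS.COM, and these groups too did not overlap. It was called higher in DCIS.COM (0.36, SE 0.042, adjusted p = 2.08e-05) and not in MCF10A (0.11, adjusted p = 0.0518). The difference of 0.26 passed (adjusted p = 0.00348), and was lost without 5 of the 8 libraries, namely replicate 1 of each MCF10A group, either pLOC-empty library or pLOC-MALINC1 replicate 2 of DCIS.COM (0.20 to 0.26, adjusted p = 0.0144 to 0.0207). *AKR1C3* stood at 62.0 and 57.0 against 46.9 and 45.8 CPM in MCF10A and at 141 in both against 117 and 125 CPM in DCIS.COM, without overlap. It was called lower in both, at -0.36 (SE 0.048, adjusted p = 5.36e-05) and -0.22 (adjusted p = 0.00259), the latter lost without either pLOC-empty library or pLOC-MALINC1 replicate 1 of DCIS.COM (-0.22 to -0.17, adjusted p = 0.0201 to 0.039). These genes are near copies, and 16.6% of the 76-base stretches of *AKR1C1*, 35.6% of *AKR1C2* and 10.1% of *AKR1C3* also occur in other genes, mostly each other, so their reads may be split wrongly.

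Of the 4 genes of heme and iron handling, 4 were called lower in MCF10A, where 18.1% of all genes were, and in DCIS.COM the 2 ferritin chains were (50%, against 16.7%). *HMOX1* stood at 12.1 and 11.8 CPM with pLOC-empty and 5.11 and 4.87 CPM with pLOC-MALINC1 in MCF10A, without overlap, and at 2.64 and 3.08 against 2.81 and 3.32 CPM in DCIS.COM, where the groups overlapped. Its log2 fold change was -1.26 (SE 0.136, adjusted p = 9.21e-06) in MCF10A and 0.10 (adjusted p = 0.577) in DCIS.COM, a difference of 1.36 (SE 0.193, adjusted p = 9.83e-05). *FTH1*, the heavy chain of the iron store ferritin, stood at 2037 and 2099 against 1512 and 1436 CPM in MCF10A and at 289 and 279 against 171 and 170 CPM in DCIS.COM, lower with pLOC-MALINC1 in each line without overlap. It fell in both, by log2 fold changes of -0.49 (SE 0.0359, adjusted p = 3.16e-07) and -0.74 (adjusted p = 1.02e-08). The difference of -0.25 passed (adjusted p = 0.00156), and was lost without pLOC-empty replicate 1 of DCIS.COM (-0.22, adjusted p = 0.013), under quantile normalization and on totals without *RN7SL1* and *RN7SL2*. The ferritin light chain *FTL* was also called lower in both lines (-0.53, adjusted p = 2.25e-06, and -0.20, adjusted p = 0.00552). Its call in DCIS.COM was lost on totals without *RN7SL1* and *RN7SL2*, with the line fitted alone and without the trend. It was lost too without pLOC-empty replicate 2 or either pLOC-MALINC1 library of DCIS.COM. In each of these fits *FTH1* was the only ferritin chain called lower there. Ferritin has many processed copies in the genome, and 31.0% of the 76-base stretches of *FTH1* occur in 12 other annotated genes and 9.30% of those of *FTL* in another gene, so their levels are uncertain. The biliverdin reductase *BLVRB* fell in MCF10A (-0.49, adjusted p = 3.65e-06) and was not called in DCIS.COM (-0.07, adjusted p = 0.253), a difference of 0.42 (adjusted p = 0.000261).

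Superoxide is turned into hydrogen peroxide by the superoxide dismutases and hydrogen peroxide is removed by catalase. None of the 3 genes was called in MCF10A at this threshold, where 18.1% of all genes were called lower, and the 3 were called lower in DCIS.COM, where 16.7% were. This contrast depended on the scaling, since *SOD1* and *SOD2* were called lower in MCF10A on both other scalings. The difference between the lines passed for *SOD2* alone, and was -0.18 for *CAT* (adjusted p = 0.0174) and -0.04 for *SOD1* (adjusted p = 0.474). *SOD2* stood at 73.6 and 75.7 CPM with pLOC-empty and 68.9 and 68.7 CPM with pLOC-MALINC1 in MCF10A, and at 85.8 and 78.8 against 47.8 and 47.6 CPM in DCIS.COM. It was the lower pair in both lines without overlap, at log2 fold changes of -0.12 (adjusted p = 0.0412) and -0.79 (SE 0.0448, adjusted p = 3.92e-08), and the difference of -0.67 passed (adjusted p = 3.37e-06). The value in MCF10A passed on both other scalings, quantile normalization and totals without *RN7SL1* and *RN7SL2* (adjusted p = 0.00752 and 0.00983). *CAT* stood at 61.9 and 61.0 against 61.1 and 58.9 CPM in MCF10A, with overlap, and at 158 and 163 against 135 and 142 CPM in DCIS.COM, without. Its log2 fold changes were -0.03 (adjusted p = 0.476) and -0.21 (SE 0.0387, adjusted p = 0.000716), and the call was lost without pLOC-empty replicate 2 or pLOC-MALINC1 replicate 1 of DCIS.COM (-0.19 and -0.18, adjusted p = 0.0116 and 0.0121). The log2 fold changes of the cytosolic *SOD1* were -0.10 (adjusted p = 0.0212) and -0.15 (adjusted p = 0.00348). On totals without *RN7SL1* and *RN7SL2* *SOD1* was called in MCF10A and not in DCIS.COM. Its call in DCIS.COM was also lost with the line fitted alone, without the trend, and without replicate 1 of either DCIS.COM group.

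The remaining targets are *PIR*, an iron-binding nuclear protein, and *OSGIN1*, a gene induced by oxidative stress. *PIR* stood at 11.5 and 10.5 CPM with pLOC-empty and 13.3 and 13.0 CPM with pLOC-MALINC1 in MCF10A, and at 66.0 and 63.1 against 55.8 and 54.1 CPM in DCIS.COM. The groups did not overlap, and the log2 fold changes of 0.26 (SE 0.0607, adjusted p = 0.00372) and -0.23 (adjusted p = 0.00775) had opposite signs, with a difference of -0.49 (adjusted p = 0.00053). Each of the separate calls was weak. That in MCF10A was lost without pLOC-empty replicate 2 or either pLOC-MALINC1 library of MCF10A (0.19 to 0.28, adjusted p = 0.0128 to 0.04), and that in DCIS.COM without any library of DCIS.COM or either pLOC-MALINC1 library of MCF10A (-0.26 to -0.20, adjusted p = 0.0102 to 0.063). Both were lost on totals without *RN7SL1* and *RN7SL2*, with each line fitted alone and without the trend, and that in MCF10A with limma voom as well (adjusted p = 0.0104 to 0.06 in MCF10A and 0.0115 to 0.025 in DCIS.COM). *OSGIN1*, at 3.0 to 4.70 CPM over the 8 libraries, was not called in either line (-0.06, adjusted p = 0.777, and 0.24, adjusted p = 0.261).

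With pLOC-empty in both lines, 12 antioxidant genes differed over 2-fold between DCIS.COM and MCF10A. *GPX2*, *AKR1C1*, *PIR*, *AKR1C2*, *PGD*, *CAT* and *AKR1C3* were over 2-fold higher in DCIS.COM, and *FTH1*, *HMOX1*, *GCLM*, *GSTP1* and *TXNRD1* were over 2-fold lower. Called higher in DCIS.COM were 16 of 40 genes (40%), against 37.9% of all genes, and called lower were 16 (40%), against 36.0%, so the shares were close to those of all genes. Called over 2-fold were 12 (30%), against 28.6%. The median log2 difference was 0.10 over the 40 genes and 0.03 over all genes. The pLOC-empty libraries of this comparison also served as the controls of the within-line comparisons. Totals without *RN7SL1* and *RN7SL2* moved the median of all genes from 0.03 to 0.14 in this comparison, and the values below are to be read against that shift.

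In the order of roles, the regulators differed modestly. *NFE2L2* and *KEAP1*, at the levels given above, were both lower in DCIS.COM, by log2 differences of -0.55 (SE 0.0425, adjusted p = 7.67e-08) and -0.59 (SE 0.0652, adjusted p = 2.67e-06), and *NFE2L1* by -0.45 (adjusted p = 6.28e-08). The small MAF genes were higher, *MAFF* by 0.52 (adjusted p = 0.000112), *MAFG* by 0.20 (adjusted p = 0.00744) and *MAFK* by 0.28 (SE 0.0756, adjusted p = 0.00384). The call of *MAFK* was lost without replicate 1 of either pLOC-empty group (0.23 and 0.20, adjusted p = 0.0385 and 0.0461).

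In the glutathione branch, *GCLM* was 3.05-fold lower in DCIS.COM (log2 difference -1.61, SE 0.0632, adjusted p = 1.01e-10), while *GCLC*, the catalytic subunit, had overlapping groups and a difference of 0.00 (adjusted p = 0.999, 95% interval -0.10 to 0.10). *GSTP1* was 2.46-fold lower (-1.30, SE 0.0331, adjusted p = 1.82e-12) and *MGST1* lower by -0.66 (adjusted p = 1.52e-09). *GPX2* differed most of the 40 genes, with 5 and 9 reads in MCF10A against 105 and 97.9 CPM in DCIS.COM, a log2 difference of 8.25 (SE 0.198, adjusted p = 1.04e-12) whose size depends on the prior count added to so few reads. *GSR* and *GPX4* were slightly lower (-0.31, adjusted p = 2.54e-06, and -0.18, adjusted p = 0.00621). The call of *GPX4* was lost on both other scalings, and without either pLOC-empty library of MCF10A or pLOC-empty replicate 1 of DCIS.COM (-0.19 to -0.10, adjusted p = 0.0269 to 0.0944). Among the thioredoxin genes, *TXNRD1* was 2.05-fold lower (-1.04, SE 0.0329, adjusted p = 1.31e-11), under 2-fold at -0.95 with quantile normalization and -0.93 on totals without *RN7SL1* and *RN7SL2*, and *SRXN1* was lower by -0.35 (adjusted p = 2.16e-06).

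Of the 4 genes of NADPH supply 3 were called higher in DCIS.COM and 1 lower, and of the 9 of carbonyl and quinone reduction 6 were called higher and 1 lower, where 37.9% of all genes were called higher and 36.0% lower. *PGD* was 3.10-fold higher (log2 difference 1.63, SE 0.0382, adjusted p = 8.37e-13), *TKT* higher by 0.67 (adjusted p = 4.55e-10) and *NQO1* by 0.45 (SE 0.0328, adjusted p = 4.86e-08). *AKR1C1* was 13.2-fold higher (3.72, SE 0.0804, adjusted p = 4.19e-13), *AKR1C2* 3.58-fold (1.84, adjusted p = 6.72e-13) and *AKR1C3* 2.37-fold (1.24, adjusted p = 8.41e-11), none with overlapping groups. *UGDH* was the gene of these roles that was lowest against MCF10A, at -0.93 (adjusted p = 1.7e-09).

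In heme and iron handling, *FTH1* was 7.28-fold lower in DCIS.COM (log2 difference -2.86, SE 0.0359, adjusted p = 4.89e-15) and *HMOX1* 4.19-fold lower (-2.07, SE 0.136, adjusted p = 1.6e-08), whereas the light chain *FTL*, at 60.7 and 65.2 CPM in MCF10A and 89.8 and 97.0 CPM in DCIS.COM, was higher by 0.57 (adjusted p = 2.09e-07). The ferritin chains thus differed in opposite directions between the lines, within the limit that their reads are uncertain. *CAT* was 2.61-fold higher (1.38, SE 0.0387, adjusted p = 4.23e-12) and *PIR* 5.86-fold higher (2.55, SE 0.0607, adjusted p = 9.56e-13). *SOD2* did not pass at 0.14 (adjusted p = 0.0124), though it did on both other scalings and with limma voom. Of the fits with 1 library left out it passed only without pLOC-empty replicate 2 of DCIS.COM (0.20).

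**Figure D4:**
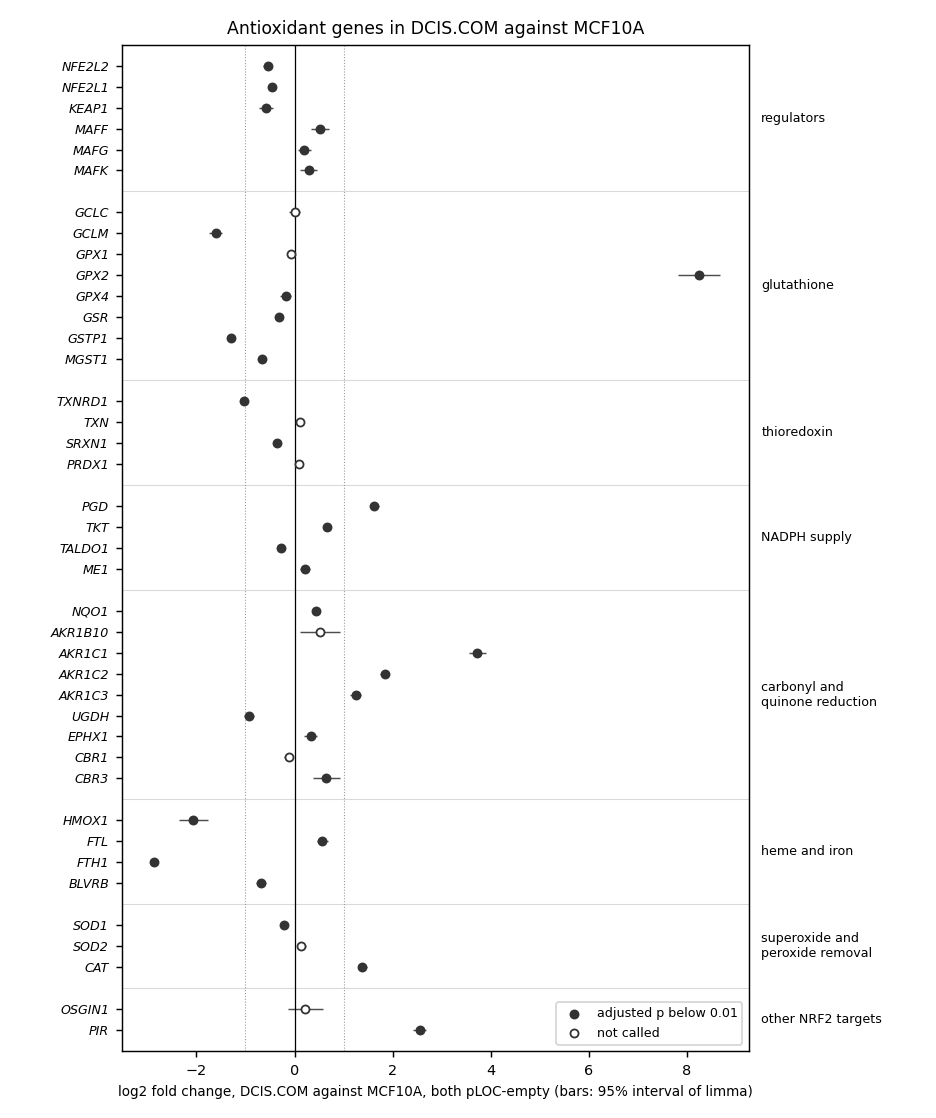
Log2 difference of each of the 40 antioxidant genes in DCIS.COM against MCF10A, both with pLOC-empty (horizontal axis, log2), grouped by role, with 95% intervals of limma as bars and filled points where the adjusted p was below 0.01. *GPX2* stands far to the right at 8.25 and *FTH1* furthest left at -2.86, and the dotted lines mark 2-fold.

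A wider list of 95 other genes of the same pathways, of which 87 were in the table, held called genes in both directions too. In MCF10A 18 were called higher and 25 lower, and in DCIS.COM 10 higher and 32 lower, with median log2 fold changes of -0.04 and -0.13. The shares called higher and lower were 20.7% and 28.7% in MCF10A, against 21.5% and 18.1% of all genes, and 11.5% and 36.8% in DCIS.COM, against 16.4% and 16.7%. The gene *NFE2L3*, a relative of NRF2, stood at 2.35 and 2.02 CPM with pLOC-empty and 6.31 and 7.48 CPM with pLOC-MALINC1 in MCF10A and at 86.5 and 86.3 against 55.7 and 55.8 CPM in DCIS.COM, without overlap. It rose in MCF10A (log2 fold change 1.66, adjusted p = 3.35e-08) and fell in DCIS.COM (-0.63, adjusted p = 0.00015), a difference of -2.29 (adjusted p = 3.72e-08). The glucuronosyltransferase *UGT1A6*, which had 1 and 4 reads in the pLOC-empty libraries of MCF10A and 31 and 24 with pLOC-MALINC1, had log2 fold changes of 2.56 (adjusted p = 3.05e-05) in MCF10A, a size that depends on the prior count, and -1.38 (8.14 and 6.75 against 3.01 and 2.70 CPM, adjusted p = 0.00375) in DCIS.COM. Its reads are uncertain too, since the *UGT1A* genes share their last exons.

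In MCF10A the efflux pump *ABCC4*, at 2.42 and 3.57 against 6.31 and 5.55 CPM, rose (1.01, adjusted p = 0.000101), and the methionine sulfoxide reductase *MSRB1*, at 3.24 and 4.10 against 1.66 and 1.70 CPM, fell (-1.12, adjusted p = 3.54e-05). In DCIS.COM the aldehyde dehydrogenase *ALDH3A1*, at 9.21 and 8.90 against 1.64 and 2.26 CPM, fell most (-2.23, adjusted p = 3.62e-07). The secreted peroxidase *GPX3*, at 1.94 and 1.60 against 0.596 and 0.603 CPM, fell by 1.55 on the log2 scale (adjusted p = 0.000199), and the aldose reductase *AKR1B1*, at 126 and 116 against 57.5 and 57.6 CPM, by 1.07 (adjusted p = 5.17e-09). None of these groups overlapped. *AKR1B1* was called lower in MCF10A as well (-0.49, adjusted p = 3.87e-06), whereas *ALDH3A1* and *GPX3* were not called there (0.19, adjusted p = 0.339, and 0.32, adjusted p = 0.281).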

How the data were processed

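RNA was measured by 76 nt paired-end sequencing (ScriptSeq v2 libraries, HiSeq2000). Rsubread mapped the reads to build hg19, featureCounts assigned them to UCSC known genes, and the authors deposited 1 table of 13842 genes in log2 CPM (read counts scaled to the library total) made with edgeR. Tool versions, the strand setting and the filter on low values are not given in the sources used here. All deposited log2 values gave whole reads within 0.01 of a read, which set each library's total and the read numbers quoted. A gene without reads stands at 0.0713 CPM because of a prior count.

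limma 3.58.1 (R 4.3.3) was fitted to the log2 CPM of every gene that reached 0.5 CPM in 2 or more libraries (13842 genes), with 4 group means, an intensity trend (residual df 4, prior df 7.98) and Benjamini-Hochberg adjustment. SE is limma's, on the log2 scale. Thresholds were an adjusted p of 0.01 and 2-fold. The fit was tested on simulated data with changes over 2-fold only, so that test does not bear on the smaller changes given here. Library names are those of the titles, and same-numbered libraries did not deviate together (correlations -0.067 to 0.0382). Replicates differed by more than sampling noise, most in the DCIS.COM pLOC-MALINC1 group (chi-square per df 20.4, against 3.27 to 6.27 in the other groups).

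Genes named with the value of every library were the core NRF2 genes (*NFE2L2*, *KEAP1*, *NQO1*, *HMOX1*, *GCLC*, *GCLM*, *TXNRD1*, *SRXN1*), genes called over 2-fold in any comparison, the 3 largest called rises and falls in each line, and genes of the wider list called over 2-fold in either line. The antioxidant genes, the wider lists and the rules were chosen with earlier results of these data known. Shared 76-base stretches were counted in GENCODE v44lift37 transcripts, which are not the annotation used to count the reads. Position in the genome was not compared, so a gene that overlaps at the same place also counts as sharing. The alternatives were other pseudocounts, filters, scalings, models and thresholds, limma voom on the recovered reads, and leaving out each library.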

Additional observations from a re-analysis of the deposited data

Results flagged for a closer look

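With 2 libraries in each group no test for an outlying library was possible. For 24 of the 40 antioxidant genes the change with pLOC-MALINC1 differed between the lines, by limma's test of the log2 fold change in DCIS.COM minus that in MCF10A (adjusted p below 0.01). It was called higher for 25% of the 40 genes and 15.6% of all genes, and lower for 35% and 20.3%. Over 2-fold the shares were 10% and 9.20%. The difference was negative, the change in DCIS.COM lying below that in MCF10A, for *MAFF* (-2.25), *ME1* (-0.75), *SOD2* (-0.67), *CBR3* (-0.66), *GCLC* (-0.64), *MAFK* (-0.53), *GSTP1* (-0.51), *PIR* (-0.49), *PGD* (-0.48), *GPX1* (-0.41), *TXN* (-0.38), *PRDX1* (-0.28), *CBR1* (-0.26) and *FTH1* (-0.25). It was positive for *HMOX1* (1.36), *GSR* (1.23), *TXNRD1* (1.03), *GCLM* (0.46), *BLVRB* (0.42), *NQO1* (0.35), *FTL* (0.33), *NFE2L1* (0.30), *AKR1C2* (0.26) and *TALDO1* (0.16). The lines also differ in growth medium, which cannot be told apart from the line.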

How the results depend on the processing

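With 2 libraries in each group and lines fitted together, calls of small changes were the ones that moved, while those over 2-fold stayed at 1 in each line and 4 for the difference in every alternative run, except without MCF10A pLOC-MALINC1 replicate 2, where *GPX2* made 2 in MCF10A. In MCF10A 12 genes were called higher, against 7 on totals without *RN7SL1* and *RN7SL2*, 4 with the line fitted alone, 6 without the intensity trend, and 7 to 11 when 1 library was left out (7 without pLOC-empty replicate 2 or either pLOC-MALINC1 library). In DCIS.COM 20 were called, 16 of them lower, against 12 and 9 with the line alone, 11 and 8 without the trend, and 12 to 20 and 9 to 16 when 1 library was left out (12 and 9 without pLOC-MALINC1 replicate 1). At an adjusted p of 0.05 7 were called higher there instead of 4. The change differed between the lines for 24 genes, 10 higher and 14 lower, against 13, 5 and 8 without the trend. Calls over all genes became fewer too. Called in neither line were 44.4% of all genes in the fit used above, 65.7% with each line fitted alone and 60.0% without the trend. For the 40 genes these shares were 22.5%, 40% and 40%.

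Directions of the genes named with every library reversed only for values that did not pass the test. When 1 library was left out, the lowest and highest log2 values were -0.0289 to 0.0486 for the difference of *NFE2L2*, -0.00899 to 0.0194 for *NQO1* in DCIS.COM, -0.0203 to 0.222 for *HMOX1* in DCIS.COM, -0.141 to 0.0470 for *GCLM* in DCIS.COM and -0.0503 to 0.0504 for *GCLC* between the lines. *NQO1* in DCIS.COM was -0.0464 under quantile normalization, *PGD* in MCF10A -0.0021 on totals without *RN7SL1* and *RN7SL2*, and the difference of *GPX2* 0.0105 with a pseudocount of 1 CPM. Among the genes named with every library, fitting a line alone ended the calls of *AKR1C1*, *GCLC*, *MAFF* and *PIR* in MCF10A and of *AKR1C3*, *CAT*, *GSTP1*, *PIR* and *SRXN1* in DCIS.COM. Leaving out the trend ended the same ones other than *MAFF*, and also the differences of *AKR1C2*, *FTH1*, *GCLM* and *MAFK* and the calls of *GPX4* and *MAFK* between the lines. limma voom ended those of *AKR1C1* and *PIR* in MCF10A. Of 1486 alternative values of the named genes and of *MALINC1* itself, 1383 kept direction and side of the threshold. The fit without a filter is among them and equals the fit used, since every gene passed the filter. This count is therefore no measure of how stable the calls are. A replicate block gave 25, 20, 23 and 31 calls, where the fit without it gave 25, 20, 24 and 32, and called *GPX2* in MCF10A (adjusted p = 0.00456), but the numbers pair no libraries. The planned edgeR and DESeq2 fits were not run, since the deposited unit is log2 CPM. limma voom, chosen after seeing the data, called 23, 23, 24 and 33. The causes were not tested.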
